A study of Mus musculus with 6 samples.

Results

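The Myc, Max and Mxd network comprised 9 genes, which were taken by symbol from the deposited tables of 24346 gene symbols. They were the Myc paralogs Myc, Mycn and Mycl, their partner Max, the Mxd genes Mxd1, Mxd3 and Mxd4, and the further Max partners Mnt and Mga. Of the 9, 7 reached an average of 1 FPKM across the 6 libraries and were tested, and Mycn and Mycl were below this filter. Between parental CT26.mMR1 cells and the mutant M8, Max was the member that stood out, with a mean 1.33 times higher in M8. Mxd3 also passed the threshold, by a smaller margin that depended on single libraries, whereas Myc, the most abundant member, did not.

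Myc proteins bind DNA only as dimers with Max. Myc-Max dimers recruit coactivators to E-box sequences and raise transcription of genes for ribosome synthesis, metabolism and growth, and dimers of Max with an Mxd protein or with Mnt occupy the same sequences and recruit the Sin3 corepressor with its histone deacetylases. Mga is a large Max partner found in a Polycomb complex that keeps germline genes silent, and MYC is amplified or overexpressed in many tumors, colorectal ones included.

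RNA sequencing compared 3 libraries of parental cells with 3 of M8. CT26 is a mouse colorectal tumor line, and both groups carried a retrovirally transduced mouse MR1 gene, the molecule that presents metabolites to MAIT cells. The labels of both groups carry cl9, and M8 was derived from CT26.mMR1 cells treated with the mutagen ENU and cloned by limiting dilution. M8 is therefore 1 clone, picked from such clones in screens that read MR1 on the cell surface and the response of MAIT reporter cells, and differences between clones cannot be told apart from effects of the mutagen. No age, stage or other treatment was given for either group, and the study describes its 3 samples of each group as biological replicates.

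FPKM values, fragment values corrected for transcript length and library size, give no depth directly, but the steps between the values of weakly expressed genes put it at 23.9 to 27.0 M reads in parental and 19.4 to 22.0 M in M8 libraries. Colon is the labelled tissue, but 4 of 10 colon epithelium markers (Epcam, Cdh1, Krt19 and Cdx2) were at 0 in every library, and 3 passed the filter. The summed level of these 10 was 41.8 to 57.7 FPKM in parental and 48.1 to 50.1 FPKM in M8 libraries. Most of it came from Krt18, which was not called, while Krt20 was lower in M8 (log2 fold change -0.50, limma adjusted p = 0.00438). Lgals4 passed the filter through its parental values alone, at 1.29 to 2.15 FPKM in parental and 0.585 to 0.795 FPKM in M8 libraries. All 7 fibroblast markers passed the filter, with sums of 2452 to 2855 FPKM and 2655 to 2754 FPKM, mostly from Vim. Of these 7, Pdgfra and Dcn were lower in M8 (log2 fold changes -0.43 and -0.38, limma adjusted p = 0.00903 and 0.0245) and Pdgfrb was higher (0.25, limma adjusted p = 0.00787). Of 7 leukocyte and endothelial markers, 3 (Cd3e, Adgre1 and Cdh5) were at 0 throughout and only Cd68 passed, with sums of 3.81 to 4.90 FPKM in parental and 1.40 to 2.48 FPKM in M8 libraries. Cd68, a lysosomal protein abundant in macrophages, was lower in each M8 library than in any parental one (log2 fold change -0.96, limma adjusted p = 0.00203). Whether the depth or these markers had a part in any result below was not tested. Both groups were cultures of a tumor line, and bulk values do not show whether a level differed in all cells or in some. Mr1 was at 1034 to 1139 FPKM over all 6 libraries and did not pass the test (log2 fold change -0.03, limma adjusted p = 0.615).

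E-box letters stood at the RefSeq start site of Max. The RefSeq promoter table for GRCm38.p6, which holds 250 bases before and 50 bases after each start site, had entries for 8 of the 9 members, not for Myc. The palindrome CACGTG, which reads the same on both strands, was found in 3 of these 8, in Max, Mxd4 and Mnt. It was present in 7.15% of all 32851 promoters of the table and, counting a gene once if any of its promoters held it, in 12.3% of the 8550 genes tested that had an entry. In Max the motif began 3 bases before the RefSeq start site and ran across it, which is outside the gene model of GENCODE M21, whose first base is further downstream. In Mnt it began 123 bases before the RefSeq start site and in Mxd4 219 bases before it. A match describes letters and not an occupied site. The stretches around the motif are shown because they place it in each gene, written 5' to 3' on the strand of the gene with CACGTG in capitals, at chr12:76962229-76962308 on the minus strand for Max, chr11:74830744-74830823 on the plus strand for Mnt and chr5:34187907-34187960 on the minus strand for Mxd4.
Max: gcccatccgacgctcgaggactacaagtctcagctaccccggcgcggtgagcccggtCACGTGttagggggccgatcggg
Mnt: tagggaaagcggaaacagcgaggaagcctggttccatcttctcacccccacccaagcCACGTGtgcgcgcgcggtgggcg
Mxd4: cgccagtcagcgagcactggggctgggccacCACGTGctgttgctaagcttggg

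The test was limma on log2(FPKM + 1), run over all 10597 genes that averaged 1 FPKM or more, and a gene was called at a Benjamini-Hochberg adjusted p below 0.1, the false discovery rate that the study used. On this scale the change of weakly expressed genes is understated. Of the 7 members tested, 2 were called, both higher in M8, 0 were lower and 5 were not called. Over all genes tested, 37.7% were called, 21.2% as higher and 16.5% as lower. The members' share was thus close to the background. The values of M8 lay all above those of parental cells in 1 member and all below in 0, against 24.8% and 20.4% of all genes tested, and the groups overlapped in the other 6. The balance of the background depended on scaling, with 2250 genes higher and 1745 lower in the values as deposited, 1658 and 2209 after rescaling to TPM, and 1157 and 3236 after upper-quartile scaling. The median log2 fold change was 0.10 over the 7 members and 0.0069 over all genes tested.

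**Figure D1:**
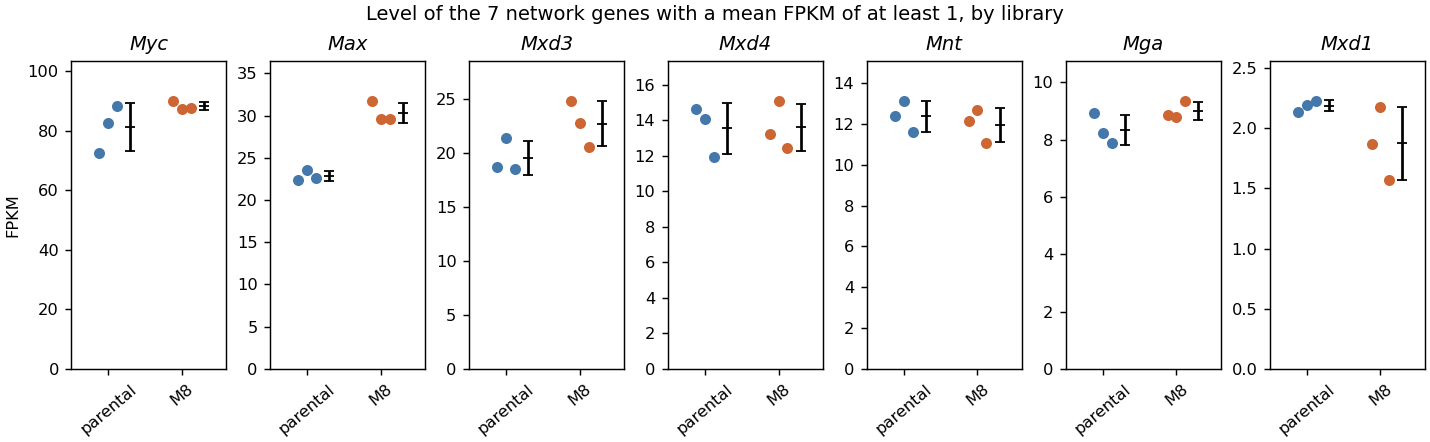
FPKM of the 7 network genes with a mean of at least 1 in each library, with 1 panel and 1 axis from 0 for each gene. Points are libraries (parental in blue, M8 in orange) and bars are the mean ± SD of 3 libraries. Max is the panel in which the groups do not overlap, at 22.4 to 23.5 FPKM in parental and 29.6 to 31.7 FPKM in M8.

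Max, the partner with which Myc proteins bind DNA, was at 22.4, 23.5 and 22.6 FPKM in parental libraries 1 to 3 and at 31.7, 29.6 and 29.6 FPKM in the M8 libraries. Each M8 library was above each parental one, and the spread within each group was small. The means were 22.8 ± 0.614 FPKM and 30.3 ± 1.22 FPKM (SD, n = 3 each), an increase of 0.39 on the log2 scale (standard error 0.047, 95% interval 0.29 to 0.50, limma adjusted p = 0.000738). An exact two-sided permutation test gave p = 0.1, the smallest that 3 libraries against 3 allow. In 2.42% of the genes tested the log2 fold change was at least as high as that of Max, and the genes called higher had a median of 0.23. Max was called in all 17 alternative fits, with log2 fold changes from 0.31 to 0.41 and a limma adjusted p between 0.000499 and 0.00649. The difference was below 1.5-fold. By the estimated depth, Max rested on 978 to 1220 reads in a library, for which counting error alone gives a coefficient of variation of at most 3.2%.

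Max lies on the minus strand of chromosome 12 at chr12:76937269-76962201 in GRCm38 (mm10, GENCODE M21), where the unconfirmed transcript model Gm47218 overlaps it on the same strand. The nearest protein-coding genes on either side were not called. Fntb, a farnesyltransferase subunit, was at 10.7 ± 1.10 FPKM in parental and 11.2 ± 0.0621 FPKM in mutant cells (SD, n = 3 each; limma adjusted p = 0.535). Fut8, a fucosyltransferase, was at 23.6 ± 0.674 and 23.7 ± 1.29 FPKM (SD, n = 3 each; limma adjusted p = 0.930).

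Myc, the only paralog expressed at a level that could be tested, had the highest FPKM of the network. Its values were 72.6, 82.6 and 88.5 FPKM in parental libraries 1 to 3 and 90.0, 87.2 and 87.7 FPKM in M8 libraries. The groups overlapped, since parental library 3 lay among the M8 values and parental library 1 lay well below all others. The log2 fold change was 0.12 (standard error 0.065, 95% interval -0.02 to 0.27, limma adjusted p = 0.182; exact two-sided permutation p = 0.3). Without parental library 3 the gene was called, with a log2 fold change of 0.19 (limma adjusted p = 0.0466). Without parental library 1 the log2 fold change was 0.05. The interval of the fit to all libraries allows a rise as well as no difference. Myc lies at chr15:61985391-61990374 on the plus strand, with no other annotated gene across it.

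Mycn and Mycl, the paralogs best known from neuronal and small cell lung tumors, were at or near 0. Mycn, at chr12:12936093-12941914, was at 0 in 5 libraries and at 0.0196 FPKM in M8 library 3. Mycl, at chr4:122995652-123002485, was at 0 in 5 libraries and at 0.0146 FPKM in M8 library 1. Each of these values corresponds to about 1 read. At this depth a library without a read allows up to 3 reads, which is 0.0449 to 0.0625 FPKM for Mycn and 0.0337 to 0.0468 FPKM for Mycl, a limit for counting error only. No difference between the groups was detectable for either gene.

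The Mxd genes encode repressors that compete with Myc for Max, and they did not move as a group. Mxd3 was at 18.7, 21.4 and 18.5 FPKM in parental and 24.8, 22.8 and 20.6 FPKM in M8 libraries. M8 library 3 lay below parental library 2, so the groups overlapped. The means were 19.5 ± 1.59 and 22.7 ± 2.11 FPKM (SD, n = 3 each), and the log2 fold change of 0.21 passed the threshold (standard error 0.076, 95% interval 0.04 to 0.38, limma adjusted p = 0.0680; exact two-sided permutation p = 0.2). This call was lost in 8 of the 17 alternative fits. They included the fits without M8 library 1 (limma adjusted p = 0.233), M8 library 2 (0.156), parental library 1 (0.155) and parental library 3 (0.168), with log2 fold changes between 0.15 and 0.20.

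Mxd3 lies at chr13:55325168-55329823 on the minus strand and shares 105 bases with the end of Prelid1, a mitochondrial lipid transfer gene on the opposite strand. Prelid1 was far more abundant and was also higher in M8, at 463 ± 25.2 FPKM in parental and 549.7 ± 7.64 FPKM in mutant cells (SD, n = 3 each; log2 fold change 0.25, limma adjusted p = 0.00436). The libraries were stranded, but whether strand was used in the quantification is not given in the sources used here. The part of reads from Prelid1 in the value of Mxd3 was not tested.

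Mxd1, a repressor known from differentiating cells, was the least abundant member tested, with 2.14, 2.197 and 2.23 FPKM in parental and 1.87, 2.18 and 1.57 FPKM in M8 libraries. M8 library 2 reached the parental range and the other two lay below it. The log2 fold change of -0.15 did not pass (standard error 0.101, 95% interval -0.38 to 0.07, limma adjusted p = 0.282; exact two-sided permutation p = 0.2), at an estimated 149 to 268 reads in a library. Mxd4 was at 14.6, 14.1 and 11.9 FPKM in parental and 13.2, 15.1 and 12.5 FPKM in M8 libraries, with full overlap and a log2 fold change of 0.0065 (95% interval -0.19 to 0.20, limma adjusted p = 0.964; exact two-sided permutation p = 1.0). The sign of this value changed with scaling. Mxd1 lies at chr6:86647042-86669161 and Mxd4 at chr5:34173883-34187720, both on the minus strand. The antisense gene Gm42846 overlaps Mxd4, and the unconfirmed model Gm44292 overlaps Mxd1.

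Mnt, a widely expressed antagonist of Myc, had 12.4, 13.1 and 11.6 FPKM in parental and 12.1, 12.7 and 11.1 FPKM in M8 libraries. The groups overlapped, and the log2 fold change was -0.04 (95% interval -0.19 to 0.10, limma adjusted p = 0.642; exact two-sided permutation p = 0.6). With the libraries left out in turn, the log2 fold change of Mnt ranged from -0.088 to 0.0060. Mga, the Polycomb partner of Max, was at 8.92, 8.23 and 7.89 FPKM in parental and 8.86, 8.80 and 9.34 FPKM in M8 libraries. Parental library 1 lay within the M8 range, and the log2 fold change was 0.10 (95% interval -0.04 to 0.24, limma adjusted p = 0.258; exact two-sided permutation p = 0.3). For both genes the interval excludes a change of 1.5-fold or more. Mnt lies at chr11:74830920-74845725 and Mga at chr2:119897228-119969581, both on the plus strand and free of overlapping annotated genes.

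**Figure D2:**
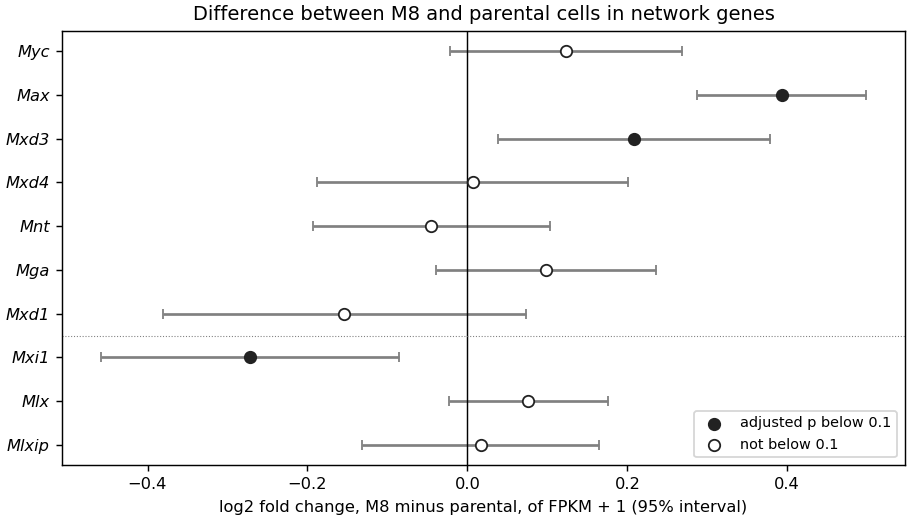
Log2 fold change, M8 minus parental, of log2(FPKM + 1) for the 7 members tested and, under the dotted line, for 3 further factors of the network. Points are limma estimates from 3 libraries against 3, bars are 95% intervals, and filled points have an adjusted p below 0.1. Max is at 0.39 and Mxd3 at 0.21, Mxi1 is at -0.27, and the intervals of the other 7 genes include 0.

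In order of level, Myc was followed by Max, Mxd3, Mxd4, Mnt, Mga and Mxd1 in both groups, by mean FPKM, a value per transcript length. Mxd4 and Mnt overlapped with each other in both groups. The libraries of every other pair of neighbours in this order did not overlap within a group. Myc made up 47.8% to 54.2% of the summed FPKM of the 9 genes in parental and 48.9% to 50.9% in M8 libraries, and Max 13.8% to 14.7% and 16.6% to 17.4%. The sum itself was 152 to 165 FPKM in parental and 172 to 183 FPKM in M8 libraries.

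Ratios within a library do not depend on how libraries were scaled to each other, and they were described without a test. The ratio of Myc to Max was 3.24, 3.51 and 3.92 in parental and 2.84, 2.94 and 2.97 in M8 libraries. All M8 ratios lay below all parental ones, with means of 3.56 ± 0.342 and 2.92 ± 0.0695 (SD, n = 3 each). The summed FPKM of the repressors Mxd1, Mxd3, Mxd4 and Mnt was 2.14, 2.16 and 1.96 times that of Max in parental and 1.64, 1.78 and 1.55 times in M8 libraries, again without overlap. The ratio of Myc to these repressors was 1.52, 1.63 and 2.002 in parental and 1.73, 1.65 and 1.92 in M8 libraries, with overlap. The ratios that differed were thus those with Max as the denominator, the member whose own level differed.

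**Figure D3:**
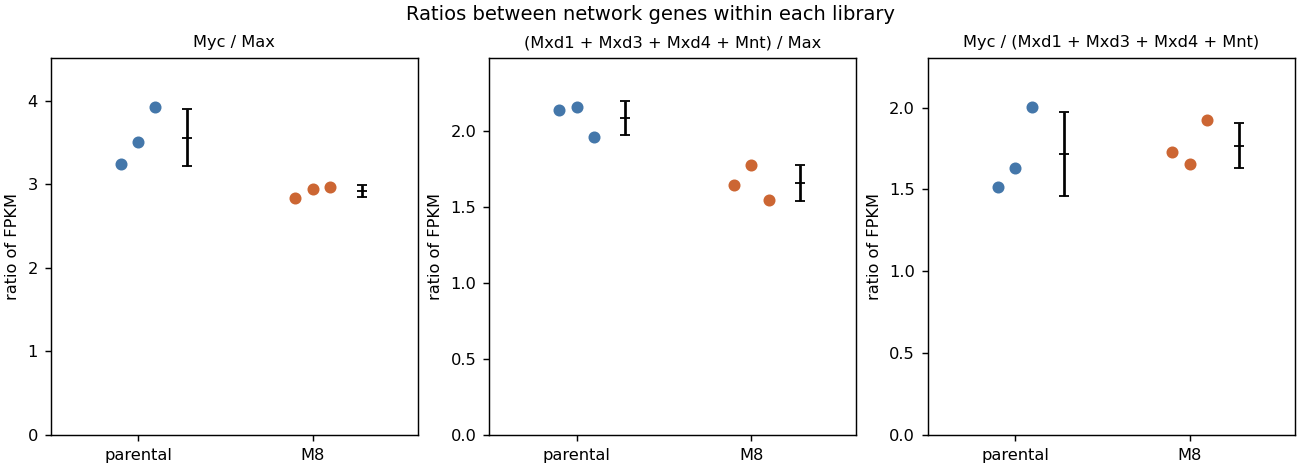
Ratios of FPKM between network genes within each library, with axes from 0. Points are libraries (parental in blue, M8 in orange) and bars are the mean ± SD of 3 libraries. The ratio of Myc to Max has a mean of 3.56 in parental and 2.92 in M8 cells, and the ratio of Myc to the summed repressors overlaps between the groups.

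Further factors bind Max or its relative Mlx, and all 4 in the list are given here, whether called or not. Mxi1, the remaining Mxd-family repressor, was at 12.2, 15.4 and 14.9 FPKM in parental and 10.8, 11.6 and 12.2 FPKM in M8 libraries. No M8 library reached the lowest parental one. The gene fell by 0.27 on the log2 scale (standard error 0.083, limma adjusted p = 0.0370), but it was not called without M8 library 1 (limma adjusted p = 0.136), parental library 2 (0.122) or parental library 3 (0.102), or without a filter on low values (0.103). Mlx, the partner of the glucose-responsive Mondo proteins, had a log2 fold change of 0.08 (limma adjusted p = 0.226), and Mlxip, one of those proteins, 0.02 (limma adjusted p = 0.872). Mlxipl was below the filter at 0.0299 to 0.0850 FPKM.

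Genes that work with the network were described as lists, each by its counts and median beside the background of 21.2% higher and 16.5% lower, and without a list test. Most genes of the lists averaged more than 5 FPKM. In the fit to the 8547 genes averaging 5 FPKM or more, 2212 were higher and 1382 lower, with a median of 0.025. The lists were chosen with earlier results of these data known, so a rank among them is not independent of those results. Targets of Myc in the nucleolus, which serve the synthesis of ribosomes, had the highest share of called genes among the lists with at least 3 genes tested. Of these 34 genes, 30 were higher in M8, 0 were lower and 4 (Npm1, Bysl, Wdr74 and Las1l, named after their values were seen) were not called, and in 29 the M8 values lay all above the parental ones. Their median log2 fold change was 0.27, and between 0.18 and 0.27 under the scaling alternatives, where 25 to 30 were higher. With a fitted change of at least 1.5-fold also asked for, 0 of these 34 genes were higher, as were 1 of the metabolic targets and 0 of the coactivators and Sin3 genes. Without parental library 2, with quantile normalization or with upper-quartile scaling, 1 was lower. Rrp12, which acts in the maturation of ribosomal subunits, rose from 15.1 ± 0.177 to 23.0 ± 1.33 FPKM (SD, n = 3 each; log2 fold change 0.58, limma adjusted p = 0.000206). Tcof1, which encodes the nucleolar protein treacle, rose from 37.3 ± 2.18 to 50.2 ± 1.96 FPKM (SD, n = 3 each; 0.42, limma adjusted p = 0.000898). Nop56, a core protein of box C/D small nucleolar RNPs, rose from 123 ± 2.94 to 164 ± 3.28 FPKM (SD, n = 3 each; 0.41, limma adjusted p = 0.000242).

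Metabolic and growth targets of Myc were less uniform. Of 35 genes, 18 were higher, 1 was lower and 16 were not called, with a median log2 fold change of 0.17. Under the scaling alternatives the median was 0.085 to 0.17 and 12 to 18 genes were higher, and under upper-quartile scaling 2 were lower. Tfrc, the transferrin receptor, rose from 23.5 ± 2.104 to 35.8 ± 1.87 FPKM (SD, n = 3 each; log2 fold change 0.59, limma adjusted p = 0.000597). Srm, spermidine synthase, rose from 183 ± 7.72 to 258 ± 12.5 FPKM (SD, n = 3 each; 0.50, limma adjusted p = 0.000282), and Tbrg4, a regulator of mitochondrial RNAs, from 21.2 ± 0.482 to 28.1 ± 1.99 FPKM (SD, n = 3 each; 0.39, limma adjusted p = 0.00152). The gene that fell was Dctpp1, a nucleotide pyrophosphatase named after its values were seen (log2 fold change -0.26, limma adjusted p = 0.0192). The glycolytic genes of the list, likewise named afterwards, differed in their calls. Eno1 was higher (log2 fold change 0.33, limma adjusted p = 0.00453), whereas Ldha, Pkm and Hk2 were not called, and their parental libraries were widely spread, as in 1075, 1534 and 1331 FPKM for Ldha.

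Coactivators that Myc recruits to chromatin comprised 12 genes, of which 7 were higher and 0 lower, with a median log2 fold change of 0.19. Under upper-quartile scaling 4 were higher and 2 lower, and without parental library 3 there was 1 lower gene. Kat2a, the histone acetyltransferase Gcn5, had a log2 fold change of 0.32 (limma adjusted p = 0.00360), and the paired ATPases Ruvbl2 and Ruvbl1 had 0.31 and 0.28. In all 3, the M8 values lay above the parental ones.

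On the side of the repressors, 3 of the 11 Sin3 corepressor genes were higher and 0 lower, a share near the background. Those that rose were Sap30, Suds3 and Brms1, all subunits of the Sin3 complex (log2 fold changes 0.33, 0.21 and 0.16, limma adjusted p = 0.0414, 0.0103 and 0.0711). Without M8 library 1 or without a filter 1 gene was higher, and with TPM or either upper-quartile scaling 1 was lower. The scaffold proteins Sin3a and Sin3b and the deacetylases Hdac1 and Hdac2 were not called, with log2 fold changes from -0.04 to 0.06, and were named after their values were seen. The median of the list, 0.06, was -0.02 after quantile normalization and -0.03 after upper-quartile scaling.

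Of 12 genes for the stability of Myc and for its partner Miz1, 3 were higher, 0 were lower and 9 were not called, with a median of 0.03. Under upper-quartile scaling the median was -0.04 and 1 gene was lower. Those called higher included Usp36, a nucleolar deubiquitinase that stabilizes Myc (log2 fold change 0.27, limma adjusted p = 0.00407), and the ubiquitin ligase subunit Skp2 (0.24, limma adjusted p = 0.0126). Fbxw7, the ligase subunit that marks Myc for degradation, was at 4.81 ± 0.0356 FPKM (SD, n = 3) in parental cells and did not differ in the test (log2 fold change -0.0026). It was named after its values were seen.

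The partners of Mga in its Polycomb complex moved in both directions. Of 9 genes, 2 were higher and 3 lower, with a median of 0.03 that was below 0 with TPM and with upper-quartile scaling. The number of higher genes was 0 under upper-quartile scaling and 1 with TPM or quantile normalization, and without a filter there was 1 lower gene. Rybp and its paralog Yaf2, subunits of noncanonical Polycomb complexes, fell by 0.24 and 0.19 on the log2 scale (limma adjusted p = 0.0131 and 0.0592), and the ubiquitin ligase Rnf2 fell by 0.21 (limma adjusted p = 0.0461). The higher genes were L3mbtl2 (0.18) and Tfdp1 (0.12), named after their values were seen. Without M8 library 1 the counts were 1 higher and 1 lower, without parental library 3 there was 1 lower gene, and without parental library 2 there was 1 higher gene.

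**Figure D4:**
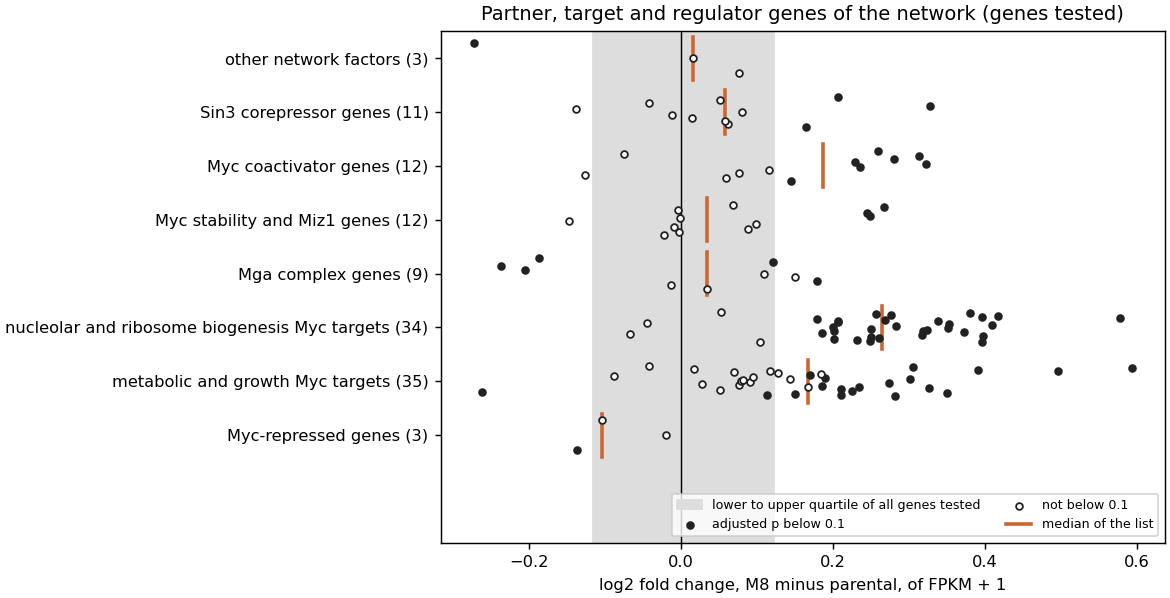
Log2 fold change, M8 minus parental, of log2(FPKM + 1) for each tested gene of the lists with at least 3 genes tested, whose number stands in parentheses. Filled points have a limma adjusted p below 0.1, orange lines are list medians, and the grey band holds all genes tested from the lower to the upper quartile. Medians are 0.27 for nucleolar Myc targets, 0.19 for Myc coactivators and 0.17 for metabolic Myc targets, and 0.06 or less in the other 5 lists.

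The letters CACGTG were more frequent in the promoters of the target lists than among all genes tested, but not in these lists alone. They were in 8 of the 29 nucleolar targets with an entry (27.6%) and in 9 of 32 metabolic targets (28.1%), against 12.3% of genes tested, 1 of 9 Sin3 genes and 1 of 11 coactivators. They were also in 7 of 10 germline genes (70.0%) and 2 of the 4 further network factors. Promoter entries covered 80.7% of the genes tested. Across all genes, 282 of the 1050 with the motif were higher (26.9%) and 142 lower (13.5%), compared with 1548 (20.6%) and 1264 (16.9%) of the 7500 without it. The median log2 fold changes were 0.03 and 0.0047. These shares describe the table and were not tested.

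Genes whose levels ran most like those of a member were found by Pearson's r of log2(FPKM + 1) over the 6 libraries, among genes averaging 5 FPKM or more. With 6 libraries and 8546 genes to choose from, the highest r is high for any gene, whether or not it differs between the groups. No p was computed. For Max the nearest genes were the condensin subunit gene Ncaph (r = 0.9996), the centrosomal gene Cep89 (0.999) and Pnp, purine nucleoside phosphorylase (0.998). All 3 were called higher, Ncaph with a log2 fold change of 0.19, Cep89 with 0.64 and Pnp with 0.38. For Myc they were Lrrfip1 (0.998), Tsen15 (0.996) and Tmem5 (0.995), and for Mxd3 Polr2a (0.996), Dnajb12 (0.993) and Mafg (0.993), none of which was called.

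**Figure D5:**
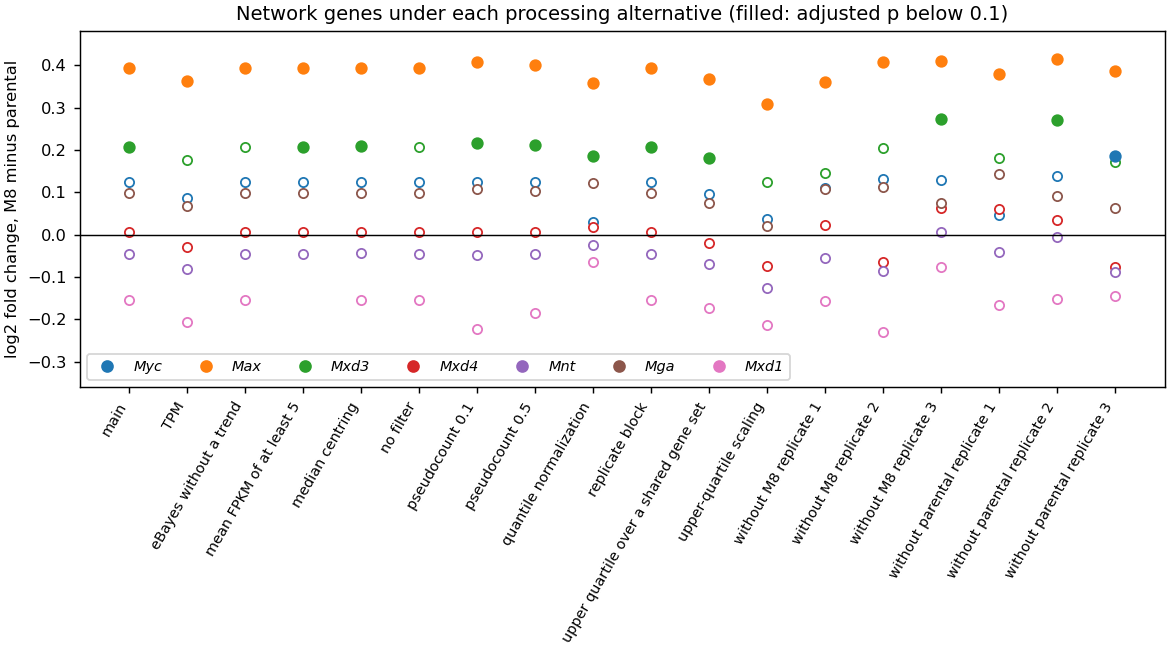
Log2 fold change, M8 minus parental, of the 7 members tested in the fit reported here and in each alternative fit, where filled points have a limma adjusted p below 0.1. Max is filled throughout, between 0.31 and 0.41. Mxd3 is open in 8 of the 17 alternatives, and Myc is filled only without parental replicate 3.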

How the data were processed

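Libraries were made with a stranded mRNA kit and read as single reads. The authors mapped reads to mm10 with TopHat, calculated FPKM values with Cufflinks 2.2.1 and deposited 1 table of FPKM per library. The submitters' processing notes name TopHat2 2.1.1 and the study's methods TopHat 2.2.1, with Bowtie2 2.2.8, SAMtools 0.1.18 and Cuffdiff 2.2.1 also in the notes. The gene annotation and the use of strand in quantification are not given in the sources used here. The authors' own comparison used read counts, which were not used here. FPKM values are not counts, so no count test was run.

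Genes averaging 1 FPKM or more were fitted on log2(FPKM + 1) with limma 3.58.1 in R 4.3.3 (eBayes with a mean-variance trend, no covariates), with Benjamini-Hochberg adjustment over all genes tested. The fit was tested on simulated data. P-values measure the spread between these 3 libraries of each line. Each member also got an exact permutation test, two-sided, on log2(FPKM + 1). Depth was estimated from the FPKM of 1 read in genes with a single transcript, taking 200 bases off its length, and reads per member from its longest coding transcript. Both are approximate and depend on that length. The positions of genes come from GENCODE M21 and promoters from RefSeq. Tables and plots used pandas 2.3.3 and matplotlib 3.10.9 in Python 3.11.15, and the permutation test used scipy 1.17.1.

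The members and the lists were chosen with earlier results of these data known. Named genes are the 9 members, up to 3 genes with the largest absolute log2 fold change among those called in each list, Mr1, and the 3 genes nearest to a member by r. Most others are marked as named after their values were seen, and Mlx, Mlxip, Mlxipl and Arrdc4 are named, called or not, to complete their short lists. The values of 1 gene that this rule covers are not reported here. Markers, overlapping genes and neighbours are named as checks. Alternatives were pseudocounts of 0.1 and 0.5, no filter or a mean FPKM of at least 5, TPM, upper-quartile scaling, median centring, quantile normalization, eBayes without a trend, the replicate number as a factor, each library left out, an adjusted p below 0.05 and a change of at least 1.5-fold. A further upper-quartile scaling was chosen after seeing the data.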

Additional observations from a re-analysis of the deposited data

How the results depend on the processing

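Max was called in all 17 alternative fits, and Mxd1, Mxd4, Mnt and Mga in none of those that tested them. Mxd1 was tested in 16, since it did not reach a mean FPKM of at least 5. The log2 fold change of Mxd3 was 0.18 with TPM (limma adjusted p = 0.114), 0.21 without a variance trend (0.1003) and 0.21 without a filter (0.153), and 0.12 with upper-quartile scaling (0.252), so that 1 member was called in each, as at an adjusted p below 0.05. With the libraries left out in turn, Mxd3 ranged from 0.15 to 0.27, Myc from 0.046 to 0.19 and the members called from 1 to 2. Without parental library 3 the 2 called members were Max and Myc. Between 1142 and 1681 genes were then lower, the lowest number without M8 library 1. At a change of at least 1.5-fold, 42 genes were higher, 74 lower and 0 members called. Upper-quartile scaling, with the quartile over the genes above 0 in each library, gave 1157 higher and 3236 lower genes. With the quartile over 1 shared set of genes above 0 in any library, a definition chosen after these values had been seen, the counts were 1848 and 2154, and 2 members were called. The cause of these shifts was not tested. With the replicate block, 2171 genes were higher, 1688 lower and 2 members called, with Max at 0.39. Libraries with the same number did not deviate together (r = 0.10, -0.11 and -0.03), so the numbers were not taken as pairs. FPKM values hide the depth behind each value, which limits Mxd1 most among the members tested and leaves Mycn and Mycl untested.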

Other observations

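Txnip, a glucose-induced target of the Mlx and Mondo proteins that restrains glucose uptake, was at 344, 354 and 364 FPKM in parental and 173, 179 and 204 FPKM in M8 libraries. The groups were far apart, and the gene fell by 0.93 on the log2 scale (standard error 0.060, limma adjusted p = 6.07e-05), under each of 17 alternative fits. Arrdc4, the other gene of that list, was at 0 in every library. Among 10 germline genes that the Mga complex is known to silence or that mark germ cells, 5 were at 0 in every library and only Taf7l, a paralog of the general transcription factor Taf7, passed the filter. It was at 3.87, 3.55 and 3.82 FPKM in parental and 1.31, 2.26 and 1.76 FPKM in M8 libraries, and it fell by 0.79 on the log2 scale (limma adjusted p = 0.00213). Among 6 genes known to be repressed by Myc, 3 passed the filter, 0 were higher and 1 was lower, or 2 without parental library 1. Cdkn1a, the cell cycle inhibitor p21, fell by 0.14 on the log2 scale (limma adjusted p = 0.0253), from 179 ± 1.76 to 163 ± 4.75 FPKM (SD, n = 3 each).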
